A study of Mus musculus with 11 samples.

Results

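The 10 transcription factors Nanog, Esrrb, Tfcp2l1, Tbx3, Prdm14, Nr0b1, Zfp42, Klf2, Klf4 and Klf5 form much of the naive pluripotency network of mouse embryonic stem cells (ESCs). They were found by symbol in the RNA-seq expression table, where all 10 of them were present among 23288 symbols. All 10 also had a mean of at least 1 FPKM (sequenced fragments scaled to transcript length and to the size of the library), the level the study takes as expressed. A ChIP-seq peak was given to a gene when it overlapped, by at least 1 bp, the window from 2.5 kb upstream of the gene start to the transcript end, which is the target rule of the study.

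Naive pluripotency is the ground state of the early epiblast, in which a cell can still give rise to every lineage of the embryo. In serum with leukemia inhibitory factor (LIF), the cytokine acts through JAK and STAT3 to sustain Klf4 and Tfcp2l1, while other inputs converge on Nanog, Esrrb and Tbx3. The factors bind and activate each other's genes, and they are silenced together when ESCs leave the naive state. Polycomb repressive complex 1 (PRC1) is a chromatin complex with the ubiquitin ligase RING1B at its core, and canonical PRC1 carries a CBX protein such as CBX7 or CBX6. It is best known for keeping developmental genes off in ESCs.

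All samples were E14Tg2A cells, an established mouse ESC line, grown without feeders on gelatin in serum and LIF. RNA-seq compared 2 libraries of cells infected with a lentiviral control short hairpin RNA (shCtl) with 2 libraries of cells infected with a hairpin against Cbx6 (shCbx6). The labels do not say which Cbx6 hairpin was used, or whether the libraries of a group came from separate infections, so the p-values measure only the spread between these libraries. ChIP-seq gave 4 peak lists, namely anti-HA ChIP replicates 1 and 2 of an ESC line whose own Cbx6 gene carries a C-terminal triple HA tag (CBX6-3×HA), a CBX7 ChIP and a RING1B ChIP. The tagged line was derived from single sorted cells, and the titles of the ChIP samples name no hairpin. The anti-HA ChIP of parental cells and the IgG ChIPs were not analysed here.

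Cbx6, the targeted gene, had 17.4 and 14.9 FPKM in the shCtl libraries, against 9.53 and 5.40 in the shCbx6 libraries. In both same-numbered pairs it was lower, at 54.7% of shCtl in pair 1 and 36.3% in pair 2. The ES cell markers Pou5f1, Sox2, Lin28a, Dppa5a, Utf1, Fgf4 and Tdgf1 were all expressed. Their summed level was 6873 and 7865 FPKM in shCtl, against 6570 and 5613 in shCbx6, of which Dppa5a made up 4580 and 5397, against 4544 and 3601. Lin28a, with 80.2 and 80.3 FPKM in shCtl, against 117.1 and 131.7 in shCbx6, went the other way, and Utf1 and Sox2 also had higher means in shCbx6. Primitive endoderm markers summed to 2.13 and 1.94 FPKM in shCtl, against 1.84 and 2.72 in shCbx6. Mesoderm markers summed to 2.74 and 1.89, against 2.44 and 3.10. Eomes made up most of each mesoderm sum, with 2.12 and 1.42 FPKM, against 1.63 and 1.92, and the others stayed under 1 FPKM. T had 0.0984 and 0.0324 FPKM in shCtl, against 0.446 and 0.771 in shCbx6, and Mixl1 and Mesp1 were higher in both shCbx6 libraries. Gsc, with 0.156 and 0.0615 FPKM, against 0.0326 and 0, and Kdr, with 0.109 and 0.131, against 0.0542 and 0.0818, were lower. Fibroblast markers summed to 2.29 and 2.32 FPKM in shCtl, against 1.66 and 5.36 in shCbx6, and in shCbx6 replicate 2 Thy1 was at 3.82 and Col1a1 at 0.549 FPKM. The trophectoderm markers summed to 2.23 and 1.66 FPKM in shCtl, against 2.53 and 13.3 in shCbx6, and Krt7 made up 9.02 FPKM in shCbx6 replicate 2. In that library Hand1 was at 1.80 FPKM, against at most 0.205 in the others. Cdx2 was there at 0.511, against at most 0.114, and Elf5 at 0.0533, against at most 0.0329, both under 1 FPKM in every library. Eomes, also in the mesoderm list, made up most of the shCtl sum and overlapped between the groups. Neuroectoderm markers summed to 39.4 and 32.8 FPKM in shCtl, against 33.2 and 26.4 in shCbx6, mostly from Tubb3, while Nes had 0.673 and 0.720 FPKM, against 1.59 and 3.27. By group means, 2 of the 4 neuroectoderm markers, Nes and Pax6, were 1.5-fold higher and 1, Sox1, was 1.5-fold lower. The 4 libraries had 11116 to 11325 genes at 1 FPKM or more.

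Whether CBX6 and PRC1 lie on these genes was examined first. At 3 of the 10 factors, Esrrb, Tbx3 and Prdm14, the peaks of CBX6 replicate 2, CBX7 and RING1B coincided. The other 7 had no peak in any of these 3 lists. CBX6 replicate 1, whose list is much longer, had a peak at 9 of the 10 factors, Nr0b1 being the exception.

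The share of all genes with a peak sets these counts in context. CBX6 replicate 1 held 21865 peaks, and 56.9% of the 21937 genes with coordinates had one, rising to 82.3% of the genes with at least 10 FPKM in shCtl. The 9 of 10 factors were thus close to the share of expressed genes. CBX6 replicate 2 held 5103 peaks and covered 16.6% of all genes, CBX7 held 5081 and covered 17.9%, and RING1B held 4180 and covered 16.1%. Among genes with at least 10 FPKM in shCtl these shares were 6.39%, 3.76% and 3.66%, and 1.86% of them had a peak in all 3 lists. The share with a peak in all 3 was 12.6% of all genes and 7.61% of those whose mean reached 1 FPKM in either group. The 3 of 10 factors with such peaks stand beside those shares as a description, with no test. The depth of the ChIP samples is unknown, because a peak list holds no read counts.

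**Figure D1:**
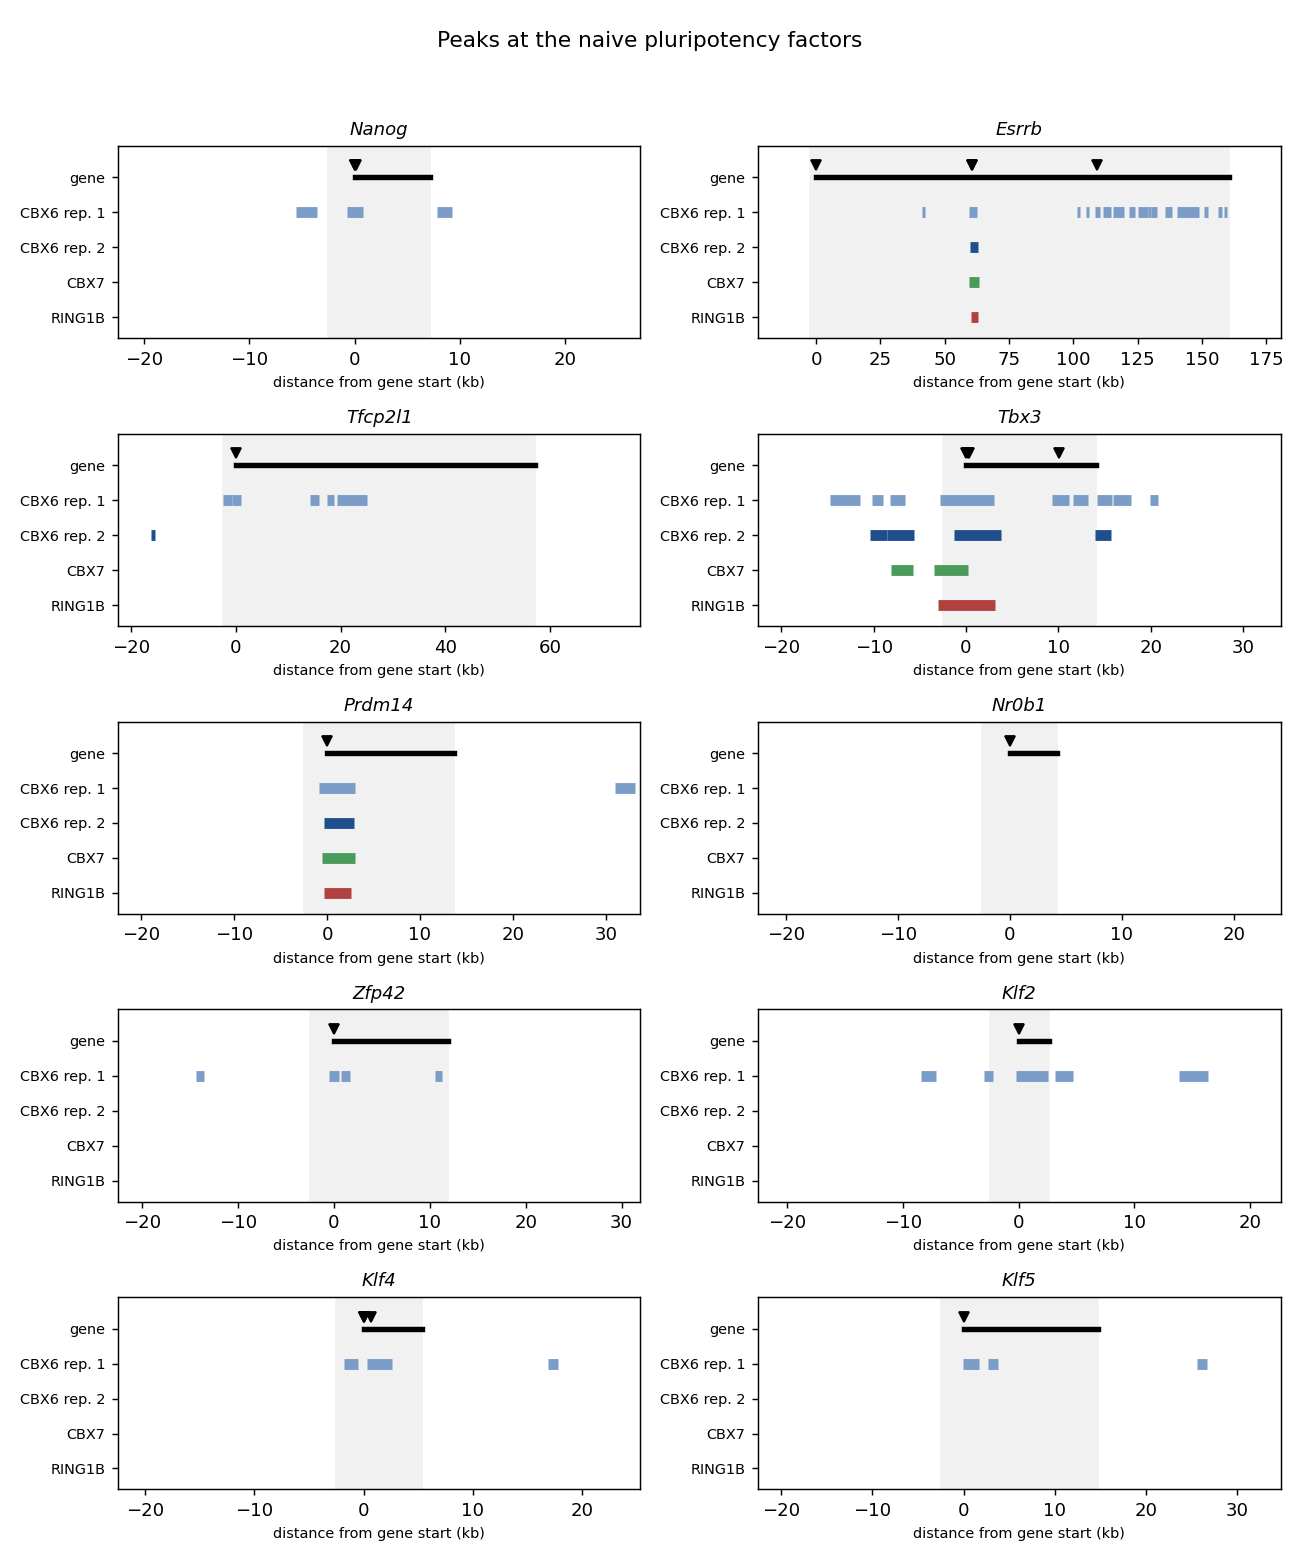
ChIP-seq peaks (colored bars, 1 row for each list) at the 10 factors, plotted by distance in kb from the gene start in the direction of transcription, with the transcribed gene as a black line, annotated coding transcript starts as triangles and the target window shaded. Bars of CBX6 replicate 2, CBX7 and RING1B lie inside the window at Esrrb, Tbx3 and Prdm14 alone, and the Esrrb bars lie across the second start, 60527 bp inside the gene, whereas replicate 1 has bars at every factor except Nr0b1.

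Esrrb, an orphan nuclear receptor that can stand in for Nanog in ESC self-renewal, carried the strongest CBX7 and RING1B peaks among the factors. The gene lies on the plus strand at chr12:87702067-87862578 (mm9), and its coding transcripts begin at 4 annotated starts. No list had a peak at the first start. The peaks lay at the second start, 60527 bp downstream, where those of CBX6 replicate 2, CBX7 and RING1B shared chr12:87762092-87764960, a region of 2869 bp. The MACS score grows with the strength of a peak and is about 50 for the weakest peak of each list. At the second Esrrb start the CBX6 replicate 2 peak scored 820.5, the CBX7 peak 1718 and the RING1B peak 1143, at or above 85.7%, 83.6% and 70.8% of the peaks of those lists. CBX6 replicate 1 had a peak there too, with a score of 140.7, at or above 72.6% of its list.

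Replicate 1 placed 16 peaks on Esrrb in all, covering 25.5% of its window, and 15 of them had no counterpart in another list. Of these, 13 lay in introns by their centers. The highest, with a score of 276.8, was centered 136940 bp downstream of the first start. It stood at or above 94.9% of its list, higher than the peak at the second start.

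The bases under the Esrrb peaks are shown beside promoters without a peak in the same 3 lists, because CpG-rich DNA is where PRC1 is usually found in ESCs. Promoter bases are those of RefSeq on GRCm38.p6 and were each found exactly once in mm9, whose coordinates are given. Each promoter sequence holds the 250 bases before the start, and capitals mark CpG dinucleotides.
Esrrb, first start, chr12:87701817-87702066 (mm9, plus strand): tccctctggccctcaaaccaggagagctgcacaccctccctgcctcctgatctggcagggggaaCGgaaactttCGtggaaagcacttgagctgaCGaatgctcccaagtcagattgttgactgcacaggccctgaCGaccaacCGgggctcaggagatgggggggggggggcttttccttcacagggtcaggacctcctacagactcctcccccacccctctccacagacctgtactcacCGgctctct
Esrrb, second start, chr12:87762344-87762593 (mm9, plus strand): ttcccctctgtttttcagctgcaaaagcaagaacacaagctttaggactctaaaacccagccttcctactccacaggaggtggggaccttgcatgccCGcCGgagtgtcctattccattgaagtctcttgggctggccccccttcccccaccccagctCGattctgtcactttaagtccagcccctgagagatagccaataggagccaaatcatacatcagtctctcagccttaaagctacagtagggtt
Esrrb, the 300 bases with the most CpG in the shared region outside untranslated exons, chr12:87763348-87763647 (mm9, plus strand): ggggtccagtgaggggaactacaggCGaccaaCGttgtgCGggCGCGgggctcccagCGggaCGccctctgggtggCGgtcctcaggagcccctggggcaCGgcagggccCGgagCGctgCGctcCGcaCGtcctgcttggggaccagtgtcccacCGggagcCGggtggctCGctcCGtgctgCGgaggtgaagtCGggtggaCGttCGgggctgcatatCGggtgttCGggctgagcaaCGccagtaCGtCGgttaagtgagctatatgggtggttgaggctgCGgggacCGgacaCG
Nanog, chr6:122657257-122657506 (mm9, plus strand): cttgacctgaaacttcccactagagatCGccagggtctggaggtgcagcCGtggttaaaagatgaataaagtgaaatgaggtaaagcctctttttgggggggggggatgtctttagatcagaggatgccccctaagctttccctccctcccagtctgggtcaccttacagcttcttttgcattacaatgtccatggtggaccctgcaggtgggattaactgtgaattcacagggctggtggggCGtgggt
Klf4, chr4:55545348-55545597 (mm9, minus strand): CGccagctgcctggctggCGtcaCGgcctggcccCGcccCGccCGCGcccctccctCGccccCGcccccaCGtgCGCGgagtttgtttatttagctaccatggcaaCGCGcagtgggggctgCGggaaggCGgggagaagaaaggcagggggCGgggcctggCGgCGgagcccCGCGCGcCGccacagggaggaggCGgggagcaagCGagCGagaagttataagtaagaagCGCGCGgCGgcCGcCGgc
The 250 bases before the first Esrrb start held 6 CpG and those before the second held 3, so the promoter at the peaks was not the richer of the pair. The CpG lay further inside the peaks. The stretch of 300 bases that begins 754 bp after the second start, in an intron, held 30 CpG and was 69.7% G or C. It was picked as the richest stretch of a longer region, so its count is a description only. Nanog, with no peak in the 3 lists, held 3 CpG in its 250 bases, whereas Klf4, likewise with no peak there, held 32.

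Tbx3, a T-box factor that sustains Nanog in ESCs and is also used widely in later development, had its shared peaks over the gene start. The gene lies on the plus strand at chr5:120120678-120134733, and the region common to CBX6 replicate 2, CBX7 and RING1B was chr5:120119369-120120859, or 1491 bp. Its CBX6 scores were high, at 325.8 in replicate 1 and 849.6 in replicate 2, at or above 97.0% and 86.2% of the peaks of those lists. Its CBX7 and RING1B scores were in the lower part of theirs, at 185.9 and 114.9, at or above 38.4% and 22.6% of the peaks. The CBX6 replicate 2 and RING1B peaks ran downstream into the gene, while the CBX7 peak was centered upstream, at -1637 bp from the start. CBX6 replicate 1 peaks covered 55.0% of the Tbx3 window.

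Prdm14, a PR domain protein that restrains FGF signaling and DNA methylation in ESCs and specifies germ cells, also had its peaks over the start. The gene lies on the minus strand at chr1:13103538-13117244, and the shared region was chr1:13114632-13117574, which is 2943 bp long and reaches from just upstream of the start into the gene. The scores were 240.5 and 673.3 in CBX6 replicates 1 and 2, 532.6 in CBX7 and 162.9 in RING1B. As at Tbx3, the CBX6 scores stood higher within their lists, at or above 92.2% and 82.4% of the peaks, than those of CBX7 and RING1B, at 62.7% and 30.3%. Scores of different lists are not on one scale, so these shares were set side by side and were not tested.

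The other 7 factors had CBX6 peaks in replicate 1 at most. Tfcp2l1, a CP2 family factor downstream of STAT3, had 5 of them, the highest with a score of 288.5 inside an intron 22186 bp from the start. Zfp42 (REX1), a zinc finger protein used as a marker of naive cells, had 3, the highest with a score of 90.0. The Kruppel-like factors Klf2, Klf4 and Klf5 had 2 each, with highest scores of 248.7, 204.0 and 115.1. Nanog had 1, over its start, with a score of 162.7. Nr0b1 (DAX1), an orphan nuclear receptor that partners with OCT4, lies on the X chromosome and had no peak in any list, the nearest lying between 7086 and 7090 kb away in the 4 lists. In the replicate 1 list 53 peaks, or 0.242%, lay on the X chromosome, against 1.82% in replicate 2, 2.68% in CBX7 and 3.11% in RING1B.

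For the factors without peaks in CBX6 replicate 2, CBX7 and RING1B, the nearest ones were usually far. At Nanog the gaps from the window were 76.5, 104 and 86.4 kb in these lists, and at Klf4 they were 116 kb in each. The closest was a CBX6 replicate 2 peak 13.0 kb from the Tfcp2l1 window, with a score of 64.4. Upstream of the Tbx3 window there were further peaks of both CBX6 replicates and of CBX7.

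At Esrrb, Tbx3 and Prdm14 the CpG content of the peaks over a start lay within the middle 50% of each of these 3 lists. Per 100 bp, these peaks held 4.67 CpG at Esrrb, 4.67 at Tbx3 and 3.71 at Prdm14 in CBX6 replicate 2, against a median of 4.67 for the list. In RING1B they held 5.02, 4.66 and 3.84, against a median of 4.67, and in CBX7 3.84, 4.65 and 3.61, against 4.41. The Prdm14 peaks were below the median in all 3 lists. The second CBX6 replicate 2 peak in the Tbx3 window, centered past the gene end and over no start, held 2.37, under the lower quartile of 3.30. The mean of the genome is 0.834. In replicate 1 the peaks of the factors ranged from 0.636 at an upstream peak of Tfcp2l1 to 8.03 at the start of Klf5, with a list median of 3.46. The replicate 1 peak over the Nanog start held 1.81. In that list the start peaks of Klf5, Klf2 and Klf4, at 8.03, 7.19 and 5.67, held more than the peaks of Esrrb, Tbx3 and Prdm14 at the starts shared with the other lists, at 4.79, 4.71 and 3.44. The Klf4 peak covered only a start 705 bp inside the gene. Further start peaks lay at later starts of Esrrb, at 2.87, and of Tbx3, at 3.92. The start peaks of Zfp42, at 2.64, and Nanog held less than these, and that of Tfcp2l1 held 3.63.

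**Figure D2:**
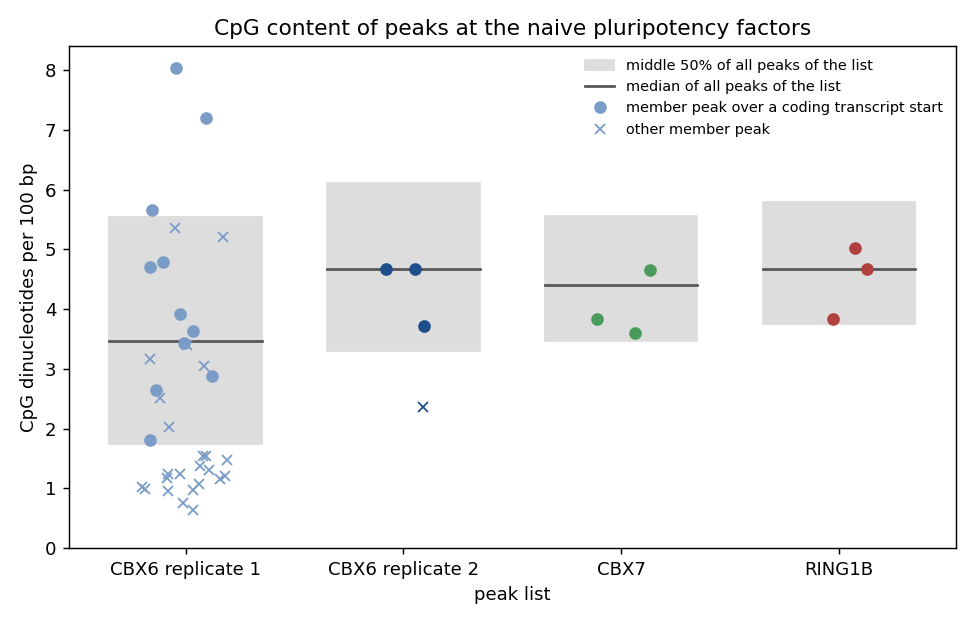
CpG dinucleotides per 100 bp (vertical axis) in each peak of the 10 factors, by list (horizontal axis, with points spread sideways for visibility), where circles cover a coding transcript start and crosses do not, and the grey box and line give the middle 50% and the median of all peaks of the list. Start peaks of CBX6 replicate 2, CBX7 and RING1B lie between 3.61 and 5.02, inside the boxes, and those of replicate 1 spread from 1.81 to 8.03.

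RefSeq promoters were matched for 7 of the factors, 9 promoters in all, with the second starts of Nanog and Esrrb. Tbx3, Prdm14 and Klf5 had no entry. Counted over 300 bases, 250 before and 50 after the start, Klf4 held 40 CpG, Klf2 32, Tfcp2l1 21, Nr0b1 14, Zfp42 11, both Esrrb promoters 7 and both Nanog promoters 4, where the median of all 32851 promoters in the table was 7. Motifs were searched on both strands. The Kruppel-like motif CCNCNCCC was in 9 of the 9, but also in 49.5% of all promoters. The 9 held 54.3% to 74.3% G or C, against a median of 52.7% over all promoters, and the 49.5% was not matched for that. The Nanog windows overlap each other, so they are not separate cases. The ESRRB motif AAGGTCA, found in 4.72% of promoters, and the STAT3 motif TTCCNGGAA, found in 1.15%, were in none of them. The TFCP2L1 motif CCAGNTC was in 4 of the 9 and in 22.8% of all promoters. The octamer ATGCAAAT was in the Zfp42 promoter and in 1.74% of all, and the E-box CACGTG was in the Klf4 promoter and in 7.15% of all. A match is a run of letters, and no match says nothing about binding outside these windows.

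RNA-seq was then used to ask how the levels of the factors differed upon Cbx6 depletion. In both shCbx6 libraries 9 of the 10 factors were lower than in both shCtl libraries, the exception being Klf2. The largest differences were in Tbx3, at 3.41-fold lower, and Klf4, at 2.90-fold lower. Tfcp2l1, Prdm14, Nanog and Esrrb were also more than 1.5-fold lower, whereas Zfp42, Klf5 and Nr0b1 differed by less. No factor passed the main limma test across all genes, which had no replicate term. With a replicate block 4 of the 10 passed, beside 3.35% of all genes, though same-numbered libraries are not known to be paired.

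Across the 11592 genes tested with limma (on log2(FPKM + 1), Benjamini-Hochberg adjustment), 11 genes, or 0.0949%, had an adjusted p under 0.05, and 0 of the 10 factors did. At an unadjusted limma p under 0.05, 8 of the 10 factors were lower, against 6.55% of all genes. By group means, 6 of the 10 were at least 1.5-fold lower, the threshold of the study, against 6.56% of all genes. Of the 10, 0 were 1.5-fold higher, against 7.63% of all genes. Values of shCbx6 lay below all values of shCtl for 9 of the 10, against 24.4% of all genes. The median log2 fold change was -0.77 over the factors and -0.01 over all tested genes. Without shCbx6 replicate 1, limma called 4 of the 10 factors and 398 of all 11714 genes tested, or 3.4%. These were Tfcp2l1, Tbx3, Prdm14 and Klf4, with limma adjusted p of 0.0215, 0.00861, 0.0176 and 0.0203. Without any other library it called 0 of the 10.

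**Figure D3:**
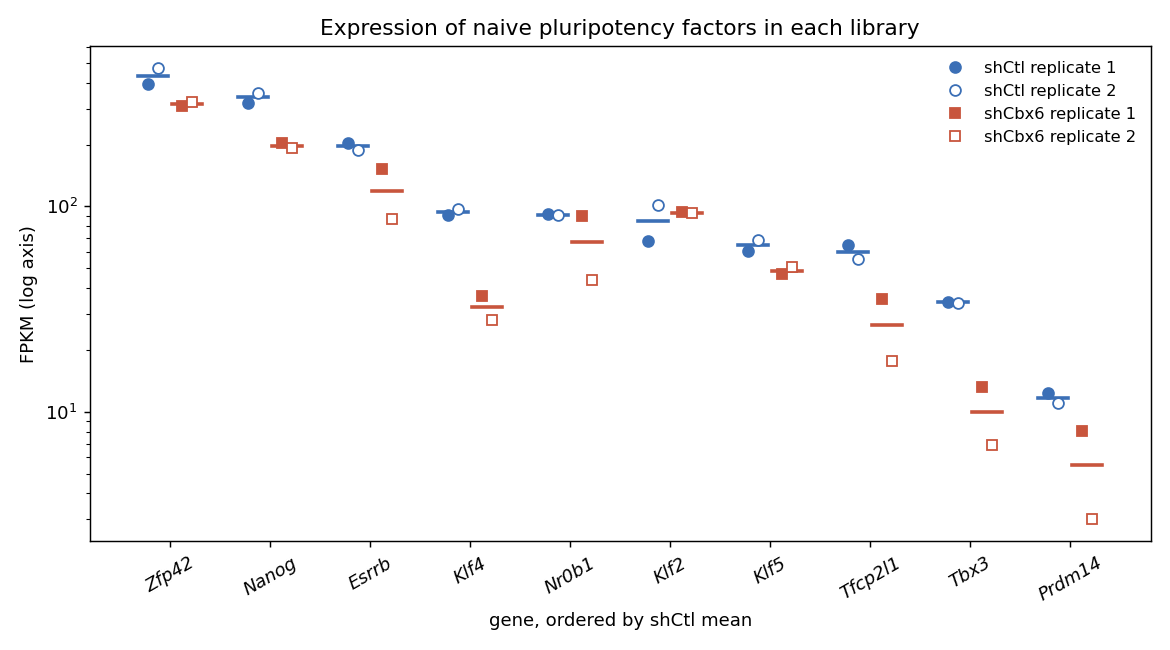
Level of each factor in FPKM (vertical axis, log scale) in the 4 RNA-seq libraries, with shCtl as blue circles, shCbx6 as red squares, replicate 1 filled, replicate 2 open and the group mean as a line, and genes ordered along the horizontal axis by their shCtl mean. Squares lie below circles for every factor except Klf2, and the shCbx6 libraries are furthest apart for Prdm14, Nr0b1, Tfcp2l1, Tbx3 and Esrrb.

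In shCtl cells the factors covered a 37.1-fold range, from Zfp42 at 432 ± 53.2 FPKM to Prdm14 at 11.7 ± 0.930 FPKM (SD, n = 2). FPKM is per length of transcript, which allows a rough order between genes. Length scaling does not correct for reads shared with pseudogenes, so the place of Nanog is less certain. The order was Zfp42, Nanog, Esrrb, Klf4, Nr0b1, Klf2, Klf5, Tfcp2l1, Tbx3 and Prdm14. Neighbors from Klf4 to Tfcp2l1 overlapped in their replicate values, while Zfp42, Nanog, Esrrb, Tbx3 and Prdm14 stood clear of their neighbors. Zfp42 and Nanog were above 98.0% and 97.7% of the genes with at least 1 FPKM in shCtl, and Prdm14 was in the middle, at or above 50.0% of them. Between group means the range in shCbx6 was 57.1-fold. By library it was 32.0-fold and 42.7-fold in shCtl, 38.4-fold in shCbx6 replicate 1 and 107-fold in shCbx6 replicate 2, so the wider range rests on that library. Klf4 was in place 5 in each shCtl library and in place 7 in each shCbx6 library.

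Tbx3 had 34.3 and 34.0 FPKM in the shCtl libraries, against 13.1 and 6.90 in the shCbx6 libraries. The shCtl values were almost equal, and both shCbx6 values were far below them. The group means were 34.2 ± 0.264 and 10.0 ± 4.42 FPKM (SD), a 70.6% lower level, with a log2 fold change of -1.73 (SE 0.287; limma adjusted p = 0.131). Of all tested genes, 0.397% had as low a log2 fold change.

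The Kruppel-like factors, which bind GC-rich sites and substitute for each other in part, did not differ alike. Klf4, a STAT3 target and reprogramming factor, had 91.1 and 96.7 FPKM in shCtl, against 36.7 and 28.0 in shCbx6, with the groups well apart. Its log2 fold change was -1.52 (SE 0.177; limma adjusted p = 0.0842), as low as in 0.518% of all genes, and it had the smallest p of the 10 factors. Klf5, which is needed for the early blastocyst lineages, had 60.6 and 68.8 FPKM in shCtl, against 46.8 and 50.5 in shCbx6. The groups did not overlap, and the log2 fold change was -0.40 (SE 0.147; limma adjusted p = 0.393). Klf2, whose protein is destabilized by MEK signaling, had 67.6 and 102.0 FPKM in shCtl, against 93.9 and 92.6 in shCbx6. Both shCbx6 values lay between those of shCtl, and the log2 fold change was 0.17 with a 95% interval of -0.41 to 0.74. Its sign turned without shCtl replicate 1, to -0.13. The difference between the Kruppel-like factors was not tested.

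Tfcp2l1 had 64.8 and 55.6 FPKM in shCtl, against 35.5 and 17.7 in shCbx6. Both shCbx6 values were below both of shCtl, with replicate 2 the lowest. The log2 fold change was -1.23 (SE 0.331; limma adjusted p = 0.274). It was -0.74 without shCbx6 replicate 2 and -1.71 without replicate 1.

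Nanog, a homeodomain protein at the center of the network, had 320.7 and 358.7 FPKM in shCtl, against 203.5 and 191.6 in shCbx6. The shCbx6 libraries were close to each other and clear of shCtl. The means were 340 ± 26.8 and 198 ± 8.46 FPKM (SD), with a log2 fold change of -0.78 (SE 0.160; limma adjusted p = 0.188). In FPKM this was the largest difference of the 10. Mouse Nanog has processed pseudogenes, so its level depends on how reads shared with them were placed.

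Esrrb had 203.5 and 188.8 FPKM in shCtl, against 151.5 and 87.2 in shCbx6. Replicate 1 was at 74.4% of its same-numbered shCtl library and replicate 2 at 46.2%, and the mean was 196 ± 10.4 FPKM in shCtl and 119 ± 45.5 FPKM in shCbx6. The log2 fold change of -0.76 (SE 0.283; limma adjusted p = 0.399) moved to -0.37 without shCbx6 replicate 2 and to -1.16 without replicate 1. A table by gene does not tell transcripts of the first Esrrb start from those of the second, at the PRC1 peaks.

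Prdm14 had 12.3 and 11.0 FPKM in shCtl, against 8.01 and 3.01 in shCbx6. Both shCbx6 values were lower, with replicate 2 at 27.3% of its same-numbered shCtl library and replicate 1 at 65.0%. Its log2 fold change was -1.07 (SE 0.384; limma adjusted p = 0.389) and moved to -0.49 without shCbx6 replicate 2 and to -1.66 without replicate 1.

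Nr0b1 had 91.6 and 91.0 FPKM in shCtl, against 90.1 and 43.7 in shCbx6. Replicate 1 of shCbx6 was at 98.4% of its same-numbered shCtl library and replicate 2 at 48.1%, so the lower mean rests on 1 library. The log2 fold change was -0.53 with a 95% interval of -1.40 to 0.33, and moved to -0.02 without shCbx6 replicate 2 and to -1.04 without replicate 1.

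Zfp42 had 394.9 and 470.1 FPKM in shCtl, against 307.5 and 321.6 in shCbx6. The groups did not overlap, and the shCbx6 libraries were closer together than those of shCtl. Its log2 fold change was -0.45 (SE 0.175; limma adjusted p = 0.416).

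**Figure D4:**
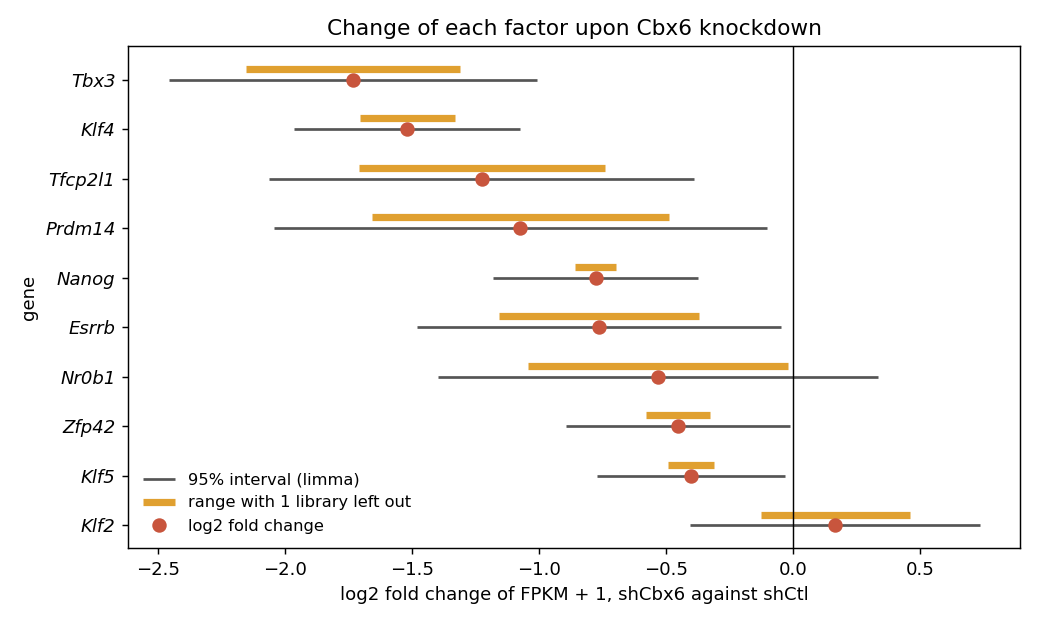
Log2 fold change of FPKM + 1 between shCbx6 and shCtl (horizontal axis) for each factor, with its 95% interval from limma as a thin line and, above it, the range of the value when each library was left out in turn as an orange bar. The points run from -1.73 for Tbx3 to 0.17 for Klf2, and the orange bars stay below 0 for 9 of the 10, that of Nr0b1 reaching -0.02.

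The shCbx6 libraries were not alike. In replicate 2 the level was below that in replicate 1 for 8 of the 10 factors, against 36.5% of all tested genes. Cbx6 itself was also lower in replicate 2, and so was the summed level of the ES cell markers, through Dppa5a and Tdgf1 above all. Of those 7 markers, Pou5f1, Lin28a and Utf1 were higher in replicate 2, and so were the trophectoderm markers Krt7, Hand1 and Cdx2 and all 6 fibroblast markers. Their part in the levels of the factors was not tested. The summed level of the 10 factors was 1341 and 1477 FPKM in shCtl, against 987 and 843 in shCbx6. In a bulk library, fewer cells that express a factor and less of its RNA in each cell cannot be told apart.

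By peaks and levels together, the factors did not divide cleanly. The 3 with CBX6 replicate 2, CBX7 and RING1B peaks had log2 fold changes of -1.73 (Tbx3), -1.07 (Prdm14) and -0.76 (Esrrb). Among the 7 without, values ran from -1.52 (Klf4) to 0.17 (Klf2). Klf4 and Tfcp2l1, with no peak in these 3 lists, had lower values than Prdm14 and Esrrb, and Nanog was close to Esrrb. No test of this division was made.

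Other genes of the network were counted in the same way, and no gene of these lists had a limma adjusted p under 0.05. Of all tested genes, 6.56% were 1.5-fold lower and 7.63% were 1.5-fold higher, and 6.55% and 5.12% were lower and higher at an unadjusted limma p under 0.05. Of 16 other transcription factors of the network, among them Pou5f1 and Sox2, 15 were tested. By group means, 3 of them were 1.5-fold lower and 2 were 1.5-fold higher, and 4 and 2 had an unadjusted limma p under 0.05. Their median log2 fold change was -0.14. Pou5f1, which encodes OCT4, had 1359 and 1452 FPKM in shCtl, against 1120 and 1151 in shCbx6, while Sox2 had 132.9 and 151.8, against 159.9 and 140.5 FPKM. Mycn, a MYC family factor that drives proliferation, had the highest log2 fold change of them, with 20.0 and 18.2 FPKM in shCtl, against 54.3 and 87.0 in shCbx6 (log2 fold change 1.80, limma adjusted p = 0.103). Gbx2 and Zfp57, at -0.78 and -0.77, were the lowest, and Tfe3 was at 0.58.

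Of 16 other marker genes of naive cells, 4 were 1.5-fold lower and 1 was 1.5-fold higher, with a median log2 fold change of -0.29. At an unadjusted limma p under 0.05, 4 were lower and 1 higher. Tet2, an enzyme that oxidizes methylated cytosine, and the adhesion molecule Jam2 were lowest, at -1.57 and -1.30. Dppa3 (STELLA), a maternal factor of early embryos and germ cells, went the other way. It had 2.36 and 2.19 FPKM in shCtl, against 27.0 and 57.1 in shCbx6 (log2 fold change 3.62, limma adjusted p = 0.0732). Eras was at 0.30.

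Of 22 genes of the signals that feed the network, from LIF, BMP, WNT and FGF, 2 were 1.5-fold lower and 3 were 1.5-fold higher, with a median of -0.03. At an unadjusted limma p under 0.05, 4 were lower and 2 higher. The ligand gene Bmp4 had a log2 fold change of -1.11 and the LIF receptor gene Lifr one of -0.55, while Fgfr2 and the BMP target Id1 were at 1.23 and 0.96. Of 14 genes linked to the exit from the naive state, 0 were 1.5-fold lower and 5 were 1.5-fold higher, and 6 were higher at an unadjusted limma p under 0.05, with a median of 0.17. Otx2, a homeodomain factor of the formative epiblast, had 3.42 and 4.65 FPKM in shCtl, against 15.3 and 30.4 in shCbx6 (log2 fold change 2.18, limma adjusted p = 0.117). Pou3f1 (OCT6) was at 2.02, and the lowest of the list were Rbpj at -0.30 and Zfp706 at -0.17.

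Paralogs of the factors served as a family comparison. Of 32 paralogs, 22 were tested, 2 were 1.5-fold lower and 4 were 1.5-fold higher, and the same numbers had an unadjusted limma p under 0.05. Their median log2 fold change was -0.02. Grhl2, a relative of Tfcp2l1, was at 1.04 and Klf6 at 0.69, while Klf15 and Klf8 were at -0.80 and -0.70. CBX6 replicate 2, CBX7 and RING1B peaks were found together at 9 of these 32 paralogs and at 3 of the 10 factors, against 12.6% of all genes with coordinates.

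The genes nearest to the mean profile of the 10 factors were sought among 6050 other genes with at least 10 FPKM in shCtl, by Euclidean distance between centered log2(FPKM + 1) values over the 4 libraries. They were Mcf2 at 0.0507, Tmem39a at 0.0986, Gm20748 at 0.108, Epha4 at 0.130 and Gbx2 at 0.134. Of the factors themselves, each a part of that mean, Esrrb was nearest to it, at 0.246, and Klf2 was furthest, at 1.12. Among the 6050 other genes, 34 were closer to the mean than Esrrb, 2721 closer than Tbx3 and 4557 closer than Klf2. The mean profile is thus not particular to the factors. With 4 libraries in 2 groups, such a profile is mainly the difference between groups and that within shCbx6.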

How the data were processed

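The authors mapped RNA-seq reads to mm9 with TopHat, kept reads with 1 placement and ran Cufflinks on RefSeq transcripts. Their deposited table gives FPKM values per gene symbol for 4 libraries; 25 of its 23290 entries are dates in place of symbols and matched no gene. Read counts are not in that table, so the absolute depth behind each FPKM is unknown. The authors mapped ChIP-seq reads uniquely to mm9 with Bowtie and called peaks per sample with MACS (shift size 75 bp); the deposited lists give a position and a score for each peak. Anti-HA ChIP of parental cells served as the control of the CBX6 ChIP per the study's text; which control entered each MACS call was not given in the sources used here, and versions of these tools were likewise not given. Per the labels, the ChIP DNA of HA and CBX7 was prepared with a kit and that of RING1B by another protocol, so scores and peak numbers are not on one scale.

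Genes whose mean reached 1 FPKM in shCtl or in shCbx6 were tested with limma 3.58.1 (R 4.3.3; lmFit, eBayes with trend, no replicate term) on log2(FPKM + 1), which understates changes of low genes, with Benjamini-Hochberg adjustment over 11592 genes. On simulated data of this size it recovered 19.4% of 2-fold, 83.6% of 4-fold and 98.5% of 8-fold changes. The simulation gave a gene the same spread in both groups and changed only genes above a low level. Its rates therefore need not hold for genes whose shCbx6 libraries lay far apart. Group means were compared at 1.5-fold. Gene windows came from the GENCODE annotation of mm9, which held 21149 symbols by name and 788 by a synonym (Tfcp2l1 among these); the authors used RefSeq. Promoters came from a RefSeq table of GRCm38.p6. Python 3.11.15, numpy 2.4.6, pandas 2.3.3 and matplotlib 3.10.9 were used.

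All factors are named; of each list the genes with the largest and smallest log2 fold changes, up to 2 each way, are named; so are Cbx6 and the 5 genes of nearest profile. Sox2, Pou5f1 and the marker genes given by name were added after their values were seen. The factors, lists and tests were chosen with earlier results of these data known. Alternatives covered the filter, pseudocount, scaling, variance trend, replicate block, fold threshold, each library left out, and the window, score and overlap of peaks.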

Additional observations from a re-analysis of the deposited data

How the results depend on the processing

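The number of genes called by limma over the whole table was 11 and depended on the setting. It was 2 with no filter on low FPKM, 17 with a pseudocount of 0.1, 388 with a replicate block and 19 to 398 with each library left out in turn (22 without shCtl replicate 1, 19 without shCtl replicate 2, 398 without shCbx6 replicate 1 and 35 without shCbx6 replicate 2). Among the 10 factors limma called 0, and 0 to 4 with each library left out, the 4 being found without shCbx6 replicate 1; the lone shCbx6 library is then assumed to vary like the others. With the replicate block, limma called 4 of the factors, Nanog, Tfcp2l1, Tbx3 and Klf4 (lowest adjusted p 0.0216), beside 3.35% of all genes. Same-numbered libraries share a number only; the correlation of their deviations from the group mean was 0.27 over 11592 genes, from 2 pairs. The log2 fold change of 9 factors was negative under 12 of 12 alternatives, and that of Klf2 was positive except without shCtl replicate 1, and ran from -0.13 to 0.46 with each library left out. The count of factors 1.5-fold lower was 4 to 7 over its alternatives, with Esrrb and Prdm14 falling under 1.5-fold without shCbx6 replicate 2. The count with groups apart was 8 to 10. Under median-ratio scaling it was 8, because the Nr0b1 values then overlapped. With the peak window set to 2.5 kb on either side of the first start, Esrrb left all 4 lists, and a score of at least 100 removed Zfp42 from CBX6 replicate 1. A window around any coding start, added after the data were seen, kept the counts of 9, 3, 3 and 3. The causes of these shifts were not tested. Absolute depth is unknown; the low FPKM values put the depth of the RNA-seq libraries at 0.956 to 1.12 times that of shCtl replicate 1.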
